A study of Homo sapiens with 10 samples.

Results

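The mRNAs of 10 genes of the NF-κB system were followed: the 5 subunits RELA, RELB, REL, NFKB1 and NFKB2, the inhibitors NFKBIA, NFKBIB and NFKBIE, the adaptor TRAF1 and the brake TNFAIP3. They were chosen by gene symbol, and each was found once among the 60671 genes of the table. The choice was made with earlier results of these data known, so counts over the members are not independent evidence. RNA came from U2OS, a human osteosarcoma cell line, in 10 libraries. The 3 libraries of the Ars group were from cells in growth medium that received arsenite, an oxidative stressor, for 50 min. The 3 EBSS+VBL+Ars libraries were from cells that spent 18 h without amino acids (AAs) in EBSS, which holds salts and glucose, together with the microtubule-disrupting drug vinblastine (VBL), and then received the same arsenite. The 3 EBSS+VBL+Gln+Ars libraries were from cells treated in the same way with glutamine (Gln) present, and 1 library was from untreated cells. All 9 replicated libraries therefore share arsenite. The missing AAs, the missing serum and VBL always came together, so their parts cannot be told apart. Below, starvation stands for this combination, and starved for cells that received it. Whether replicates came from separate cultures is not in the labels, and the p-values reflect library-to-library spread that may be technical.

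NF-κB is a family of transcription factors that act as dimers. In the canonical arm, IκB proteins such as NFKBIA hold RELA and the NFKB1 product p50 in the cytoplasm until the IKK complex marks the inhibitors for destruction. In the non-canonical arm, the kinase NIK (MAP3K14) accumulates, the NFKB2 precursor is processed to p52, and p52 enters the nucleus with RELB. Several family genes, among them NFKBIA, NFKB1, NFKB2, RELB, TNFAIP3 and TRAF1, are textbook NF-κB targets, so their mRNA levels are often read alongside the pathway, although mRNA does not report protein processing or nuclear entry.

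The libraries held 3538017 to 7019842 reads counted on genes, with 5914439 to 7019842 in Ars, 3538017 to 4993421 in EBSS+VBL+Ars, 4452208 to 6323628 in EBSS+VBL+Gln+Ars and 5302037 in the untreated library. Values are counts normalized by the authors with DESeq2 size factors and are relative to the rest of each library. In bulk RNA, fewer cells expressing a gene and less RNA per cell cannot be told apart. Of 8 mesenchymal and osteoblast markers, 7 reached a mean of 10 normalized counts, and COL1A2 stayed at 0 to 11.9. The summed level of the 8 was 32769 to 34718 normalized counts in Ars, 17498 to 20402 in EBSS+VBL+Ars, 20305 to 22221 in EBSS+VBL+Gln+Ars and 16606 in the untreated library. None of 10 blood cell markers reached that mean (0 of 10), their summed level was 5.24 to 16.4 normalized counts in every library, and HBB and NKG7 were among those at 0 throughout. The summed level of 4 epithelial markers was 84.4 to 90.6 in Ars, 18.0 to 26.5 in EBSS+VBL+Ars and 15.2 to 22.7 in EBSS+VBL+Gln+Ars. Among the epithelial markers KRT14 reached 68.0 and no other exceeded 12.6. The sum of 3 endothelial markers was 18.9 to 28.9, 20.2 to 27.6 and 33.6 to 40.0 in the same groups. The part of these genes in the results was not tested.

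The starts of these genes differ in the κB motif, the DNA sequence that NF-κB dimers bind. The motif was searched by name on both strands, as GGG, a purine, any base, A or T, a pair of pyrimidines and CC, in windows from 250 bases before to 50 bases after each RefSeq gene start (GRCh38.p14). Overlapping matches on opposite strands were kept as 1 stretch. RefSeq windows were matched for 8 members, with 15 windows, and those of RELB and NFKBIE were not matched. A κB match was present in 7 windows of 6 members, NFKB1, NFKB2, NFKBIA, NFKBIB, REL and TNFAIP3, against 5.90% of all 34943 windows and 7.09% of all 27167 genes. The 2 RELA windows and the 3 TRAF1 windows held none. A looser form, GGG and CC with any 5 bases between them, was in 58.6% of all windows. Below are the 200 bases before the start of the members on which the comparisons turn, with κB matches in capitals: the canonical precursor NFKB1 (chr4:102501159-102501358, plus strand), both matching starts of the non-canonical precursor NFKB2 (chr10:102394378-102394577 and chr10:102395505-102395704, plus strand), the inhibitor NFKBIA (chr14:35404750-35404949, minus strand), REL (chr2:60881374-60881573, plus strand), and TRAF1 (chr9:120929172-120929371, minus strand), which has none.
NFKB1: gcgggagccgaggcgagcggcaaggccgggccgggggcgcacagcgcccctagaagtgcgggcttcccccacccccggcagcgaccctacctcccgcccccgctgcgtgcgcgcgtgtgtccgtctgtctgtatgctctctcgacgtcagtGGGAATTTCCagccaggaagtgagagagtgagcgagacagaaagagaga
NFKB2, upstream start: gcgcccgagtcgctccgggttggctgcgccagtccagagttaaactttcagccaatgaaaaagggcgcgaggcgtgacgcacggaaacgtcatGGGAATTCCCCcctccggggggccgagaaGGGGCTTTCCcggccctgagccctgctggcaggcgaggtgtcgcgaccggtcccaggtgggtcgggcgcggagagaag
NFKB2, downstream start: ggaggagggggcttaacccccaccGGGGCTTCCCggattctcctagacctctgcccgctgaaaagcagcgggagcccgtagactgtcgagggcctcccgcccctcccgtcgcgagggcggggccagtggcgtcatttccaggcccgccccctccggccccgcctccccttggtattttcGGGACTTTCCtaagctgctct
NFKBIA: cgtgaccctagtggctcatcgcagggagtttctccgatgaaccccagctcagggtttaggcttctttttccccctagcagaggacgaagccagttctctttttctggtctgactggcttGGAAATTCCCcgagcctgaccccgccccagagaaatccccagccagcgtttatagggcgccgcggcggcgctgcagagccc
REL: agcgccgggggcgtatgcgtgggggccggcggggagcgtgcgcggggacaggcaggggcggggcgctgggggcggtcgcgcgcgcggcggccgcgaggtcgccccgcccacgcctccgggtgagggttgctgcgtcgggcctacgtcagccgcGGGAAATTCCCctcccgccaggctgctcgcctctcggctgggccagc
TRAF1: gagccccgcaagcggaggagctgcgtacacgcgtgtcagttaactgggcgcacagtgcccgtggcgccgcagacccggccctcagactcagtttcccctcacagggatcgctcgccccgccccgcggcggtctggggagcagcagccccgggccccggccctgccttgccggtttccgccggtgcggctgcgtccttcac
Counted in bases from the start, the matches began at -49 in NFKB1, at -107 and -78 in the upstream NFKB2 window, at -176 and -21 in its downstream window, at -81 in NFKBIA and at -47 in REL. A match is a description of sequence, not a site shown to be bound.

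The first comparison, EBSS+VBL+Ars against Ars, asks what starvation, as defined above, did to cells that all received arsenite. Of the 10 members, 9 rose and REL did not pass the test. TRAF1 rose 70.6-fold, RELB 14.7-fold, TNFAIP3 7.52-fold and NFKB2 5.13-fold, while RELA rose 1.68-fold, the smallest rise of the 9. Genes were tested with limma on log2(normalized count + 1) over 12971 genes and called at a Benjamini-Hochberg adjusted p under 0.05 with a change of at least 1.5-fold. Of all genes tested, 21.5% were called higher and 21.3% lower. The median log2 fold change was 1.78 over the 10 members and 0.016 over all genes tested. In 9 members every EBSS+VBL+Ars library lay above every Ars library, which was so for 30.5% of all genes tested.

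**Figure D1:**
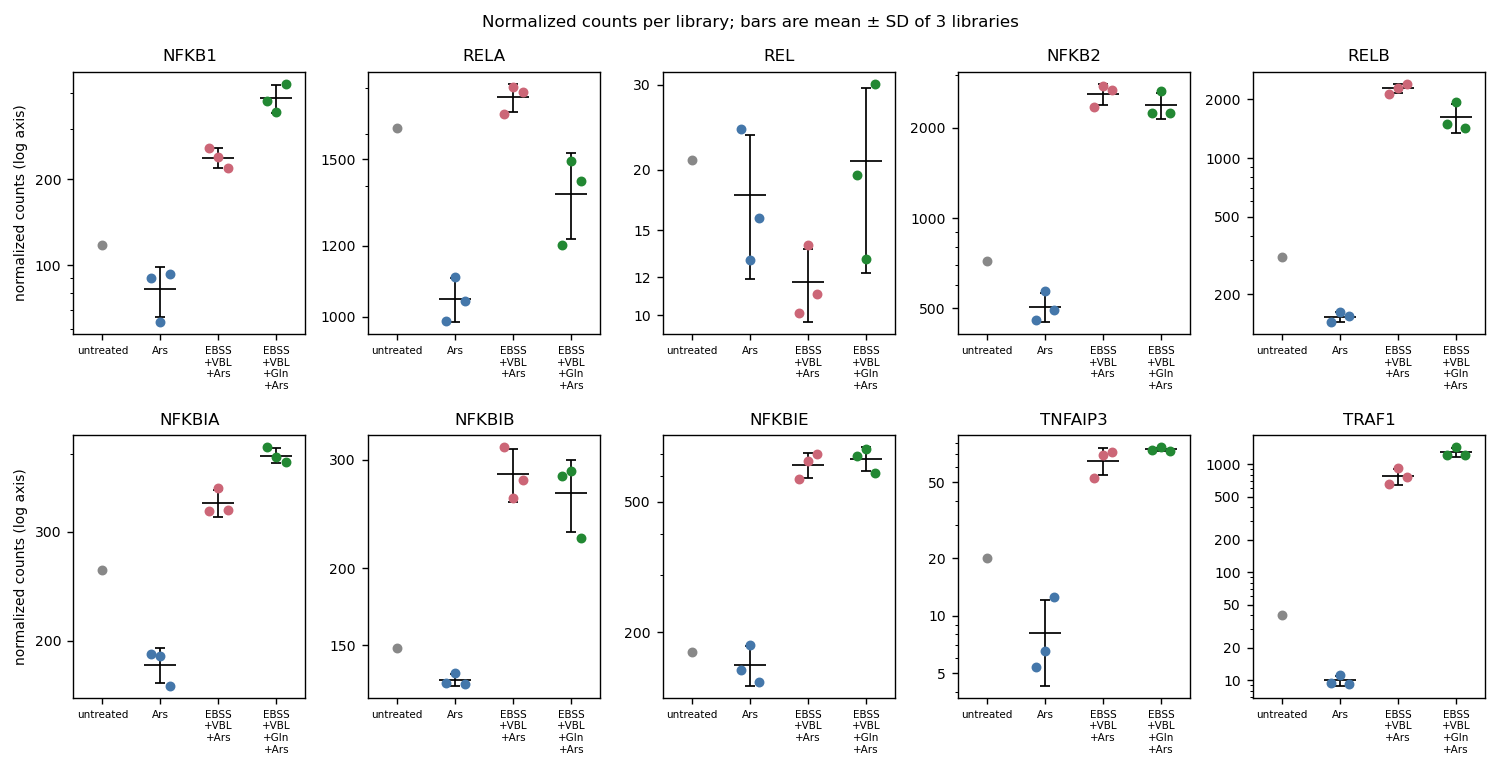
Normalized counts of each member on a log axis, 1 point per library, for the untreated library and the 3 libraries of each treated group, with bars at the mean ± SD of 3 libraries. TRAF1 lies at 9.22 to 11.2 in Ars and at 649 to 1434 in the starved cells with or without glutamine, whereas the groups of REL overlap.

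Between Ars and EBSS+VBL+Ars, the non-canonical subunits had the largest fold changes among the subunits. RELB (chr19:45001461-45038192, plus strand), the transactivating partner of p52, was at 144, 163 and 154 normalized counts in Ars, 2143, 2279 and 2409 in EBSS+VBL+Ars, 1487, 1932 and 1431 in EBSS+VBL+Gln+Ars, and 310.0 in the untreated library (95% Poisson interval 277 to 346). The 4 conditions did not overlap for RELB, and both starved groups stood far above Ars. Its mean was 154 ± 9.28 in Ars and 2277 ± 133 in EBSS+VBL+Ars (SD, n = 3), a log2 fold change of 3.88 (SE 0.12, limma adjusted p = 9.53e-15). NFKB2 (chr10:102394110-102402524, plus strand), which encodes the p52 precursor, was at 458, 569 and 493 in Ars, 2356, 2757 and 2684 in EBSS+VBL+Ars, 2245, 2657 and 2239 in EBSS+VBL+Gln+Ars, and 718 in the untreated library (interval 668 to 771). The starved groups overlapped each other and stood apart from Ars and from the untreated library. The log2 fold change of NFKB2 between EBSS+VBL+Ars and Ars was 2.36 (SE 0.11, limma adjusted p = 4.23e-12).

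In the same comparison the canonical subunits had smaller fold changes. NFKB1 (chr4:102501330-102617302, plus strand), which encodes the p50 precursor, was at 90.5, 63.3 and 93.1 normalized counts in Ars, 257, 239 and 219 in EBSS+VBL+Ars, 378, 345 and 433 in EBSS+VBL+Gln+Ars, and 118 in the untreated library (interval 98.1 to 141). The groups of NFKB1 formed 3 separate steps, lowest in Ars and highest with glutamine. The first step was a log2 fold change of 1.54 (SE 0.15, limma adjusted p = 6.29e-08). RELA (chr11:65653599-65663090, minus strand), the main transactivating subunit of the canonical dimer, was at 989, 1107 and 1039.7 in Ars, 1685, 1805 and 1782 in EBSS+VBL+Ars, 1203, 1494 and 1418 in EBSS+VBL+Gln+Ars, and 1626 in the untreated library (interval 1550.0 to 1705). The glutamine group lay between Ars and EBSS+VBL+Ars, and the untreated value lay above every Ars and every glutamine library. RELA rose by a log2 fold change of 0.75 in EBSS+VBL+Ars (SE 0.10, limma adjusted p = 6.38e-06). With libraries scaled to equal totals it was 0.57, and after quantile normalization 0.44, both under 1.5-fold.

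REL (chr2:60881491-60931612, plus strand), a subunit best known from lymphocytes, was at 24.3, 13.0 and 15.9 normalized counts in Ars, 10.1, 14.0 and 11.0 in EBSS+VBL+Ars, 19.5, 13.1 and 30.2 in EBSS+VBL+Gln+Ars, and 20.9 in the untreated library (interval 13.1 to 31.7). These values came from 8 to 44 reads per library, and the 3 groups overlapped. The log2 difference between EBSS+VBL+Ars and Ars was -0.53 (SE 0.34, limma adjusted p = 0.190, 95% interval -1.23 to 0.18), so a fall of over 1.5-fold was not excluded at this depth. An annotated gene without a symbol shares 33.3% of REL's exon bases on the same strand and was listed at 0 in every library. That 0 does not show whether reads in the shared bases were counted for REL.

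Among the inhibitors, NFKBIE rose most. NFKBIE (chr6:44258166-44265788, minus strand), which encodes IκBε, was at 154, 184 and 141 normalized counts in Ars, 586, 664 and 697 in EBSS+VBL+Ars, 687, 726 and 614 in EBSS+VBL+Gln+Ars, and 174 in the untreated library. The starved groups overlapped each other and exceeded Ars in every library, with a log2 fold change of 2.02 for EBSS+VBL+Ars (SE 0.12, limma adjusted p = 8.94e-11). NFKBIB (chr19:38899700-38908893, plus strand), which encodes IκBβ, was at 130.3, 135 and 130.0 in Ars, 314, 260.2 and 278 in EBSS+VBL+Ars, 282, 287 and 224 in EBSS+VBL+Gln+Ars, and 148 in the untreated library. It too separated the starved groups from Ars but not from each other, with a log2 fold change of 1.10 (SE 0.13, limma adjusted p = 7.47e-07). NFKBIA (chr14:35401079-35404749, minus strand), the IκBα gene whose quick resynthesis ends a canonical response, was at 190.4, 189 and 169 in Ars, 323, 353 and 325 in EBSS+VBL+Ars, 410.2, 395 and 388 in EBSS+VBL+Gln+Ars, and 261 in the untreated library (interval 231 to 293). All 4 conditions stood apart, and the log2 fold change of NFKBIA in EBSS+VBL+Ars was 0.86 (SE 0.11, limma adjusted p = 2.12e-06).

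The adaptor and the brake started from very low levels. TRAF1 (chr9:120902393-120929173, minus strand), an adaptor of TNF receptors, was at 9.45, 11.2 and 9.22 normalized counts in Ars, 649, 917 and 766 in EBSS+VBL+Ars, 1219, 1434 and 1222 in EBSS+VBL+Gln+Ars, and 39.9 in the untreated library (interval 28.8 to 54.0). No library of any condition overlapped another condition, and the Ars values rested on 11 to 14 reads each. The log2 fold change of TRAF1 in EBSS+VBL+Ars was 6.14 (SE 0.14, limma adjusted p = 1.14e-16). TNFAIP3 (chr6:137867214-137883314, plus strand), which encodes the ubiquitin-editing enzyme A20 that limits canonical signalling, was at 5.40, 6.52 and 12.6 in Ars, 52.8, 69.8 and 71.8 in EBSS+VBL+Ars, 73.6, 76.2 and 73.3 in EBSS+VBL+Gln+Ars, and 20.0 in the untreated library (interval 12.4 to 30.5). All 4 conditions stood apart, although the Ars values rested on 7 to 15 reads. The starved groups were separated only by 71.8 against 73.3, and their difference did not pass (limma adjusted p = 0.578). The untreated interval included the highest Ars value, 12.6. The log2 fold change of TNFAIP3 in EBSS+VBL+Ars was 2.91 (SE 0.26, limma adjusted p = 1.85e-08). Fold changes on the log2(value + 1) scale understate the change of such low genes. Exons of other genes on the opposite strand share 1.47% to 1.89% of the exon bases of TNFAIP3, NFKBIB and RELA, and the strand setting of the counting is not given in the sources used here.

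**Figure D2:**
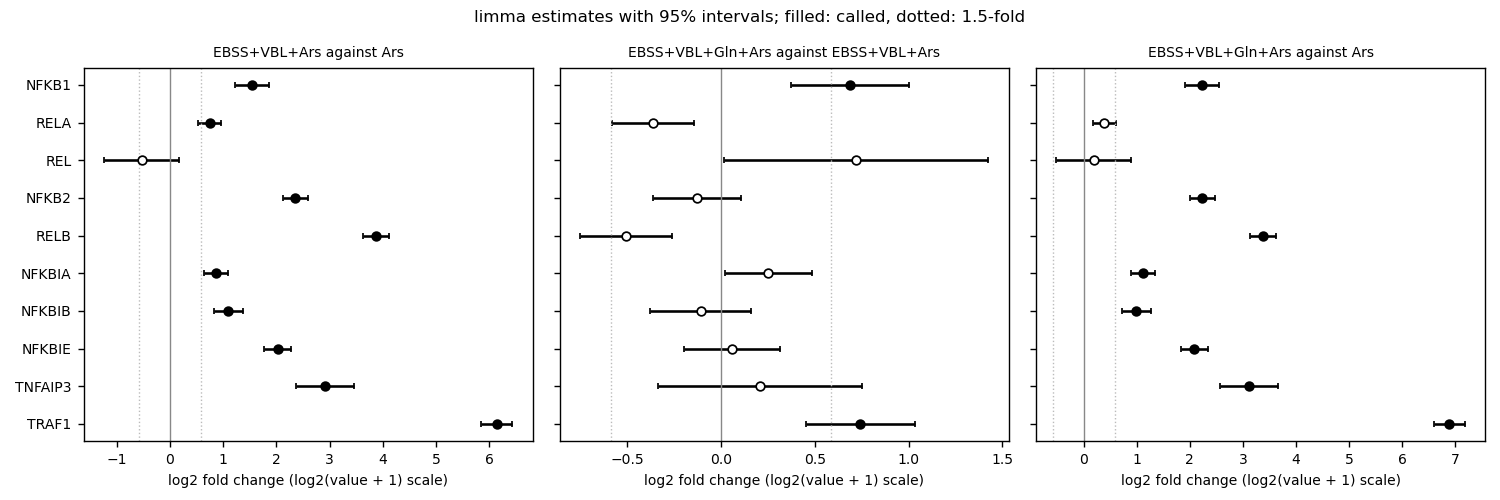
limma log2 fold changes of the 10 members with 95% intervals, from left to right for EBSS+VBL+Ars against Ars, EBSS+VBL+Gln+Ars against EBSS+VBL+Ars, then EBSS+VBL+Gln+Ars against Ars. Filled points passed the test with a change of at least 1.5-fold (dotted lines): 9, 2 and 8 of 10 members.

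The second comparison, EBSS+VBL+Gln+Ars against EBSS+VBL+Ars, asks what glutamine changed in starved cells. TRAF1 rose a further 1.67-fold and NFKB1 1.61-fold. No member was called lower. The 2 members called higher stand beside 8.45% of all genes tested that were called higher and 8.52% called lower. The median log2 fold change was 0.13 over the members and 0.004 over all genes. In NFKB1, NFKBIA, TRAF1 and TNFAIP3 the glutamine libraries lay above all EBSS+VBL+Ars libraries, which was so for 18.4% of all genes, and in RELA and RELB they lay below, which was so for 20.8%.

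The means of TRAF1 were 777 ± 134 in EBSS+VBL+Ars and 1292 ± 123 in EBSS+VBL+Gln+Ars (SD, n = 3), a log2 fold change of 0.74 (SE 0.14, limma adjusted p = 0.00074). Those of NFKB1 were 238 ± 19.2 and 385 ± 44.5, a log2 fold change of 0.69 (SE 0.15, limma adjusted p = 0.00234). The call of NFKB1 was lost, at a log2 fold change of 0.47, once the trend of log2 values with GC content was removed from each library. The annotated exons of NFKB1 have a GC content of 40.9%, against 63.2% for those of RELB. RELB and RELA lay lower with glutamine: RELB was at a log2 difference of -0.51 (SE 0.12, limma adjusted p = 0.00362) and RELA at -0.36 (SE 0.10, limma adjusted p = 0.0147), each under 1.5-fold and therefore not called. Without EBSS+VBL+Gln+Ars replicate 2, the library with the highest RELB, RELB stood at -0.64 and passed. REL was at 0.72 (SE 0.34, limma adjusted p = 0.116), and it passed at 1.00 without the same library and at 0.99 with equal totals.

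For the remaining members the interval of the difference is given, which holds only for the authors' scaling of the libraries. The log2 difference was -0.13 for NFKB2 (95% interval -0.36 to 0.11), -0.11 for NFKBIB (-0.38 to 0.16), 0.06 for NFKBIE (-0.20 to 0.31), 0.25 for NFKBIA (0.02 to 0.48) and 0.21 for TNFAIP3 (-0.33 to 0.75). A change of 1.5-fold lay outside the interval for NFKB2, NFKBIB, NFKBIE and NFKBIA and inside it for TNFAIP3. When libraries were scaled to equal totals, the median over all genes became 0.28, the split of calls went from 1096 higher and 1105 lower to 2836 and 330, and NFKB2 and NFKBIB were at 0.16 and 0.18.

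The third comparison, EBSS+VBL+Gln+Ars against Ars, shares its libraries with the first and the second and is given by its own values. Of the 10 members, 8 were called higher and none lower (0 lower), beside 16.5% of all genes called higher and 15.3% lower. Every glutamine library lay above every Ars library in 9 members, which was so for 29.3% of all genes. TRAF1 stood 118-fold higher (log2 fold change 6.88, SE 0.14, limma adjusted p = 2.70e-17), RELB 10.4-fold (3.37, SE 0.12, limma adjusted p = 8.97e-14), and NFKB1 and NFKB2 4.68-fold and 4.69-fold. RELA was at a log2 difference of 0.39 (SE 0.10, limma adjusted p = 0.00542), under 1.5-fold, and REL at 0.19 (SE 0.34, limma adjusted p = 0.671). The median over the members was 2.15, beside 0.016 over all genes.

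To set the non-canonical against the canonical subunits, their ratio was taken within each library, where the scaling of libraries cancels. The RELB/RELA ratio of normalized counts was 0.146, 0.147 and 0.148 in Ars, 1.27, 1.26 and 1.35 in EBSS+VBL+Ars, 1.24, 1.29 and 1.01 in EBSS+VBL+Gln+Ars, and 0.191 in the untreated library. The Ars libraries and the untreated library held several times fewer RELB than RELA counts, and all 6 starved libraries held more RELB. Against Ars, the log2 ratio was higher by 3.13 in EBSS+VBL+Ars (SE 0.032, 8.74-fold, two-sided exact permutation p = 0.1) and by 2.99 in EBSS+VBL+Gln+Ars (SE 0.11, exact permutation p = 0.1). The difference between the groups with and without glutamine was -0.14 (SE 0.11, exact permutation p = 0.3), with overlapping groups.

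The ratio of the precursors, NFKB2/NFKB1, had another pattern. It was 5.07, 8.99 and 5.30 in Ars, 9.16, 11.5 and 12.3 in EBSS+VBL+Ars, 5.94, 7.70 and 5.17 in EBSS+VBL+Gln+Ars, and 6.09 in the untreated library. Only the EBSS+VBL+Ars libraries stood apart, just above the highest Ars library. The mean log2 ratio of the EBSS+VBL+Ars group was 0.82 above that of Ars (SE 0.29, 1.76-fold, exact permutation p = 0.1) and it was 0.82 lower with glutamine than without (SE 0.21, 1.76-fold, exact permutation p = 0.1). It differed by 0.0026 between EBSS+VBL+Gln+Ars and Ars (SE 0.31, exact permutation p = 1). With 3 libraries against 3 the smallest p is 0.10, so no ratio could pass 0.05. Adjusted over the 6 ratio comparisons, the p of the 4 that did not overlap was 0.15. A ratio does not cancel a trend with GC content, which is 61.6% for the annotated exons of NFKB2 and 40.9% for those of NFKB1. With that trend removed from each library, an alternative chosen after seeing the data, the NFKB2/NFKB1 difference between the groups with and without glutamine was -0.34 (SE 0.081, exact permutation p = 0.1), well under the 0.82 above, and NFKB2 itself lay at 0.13 in that comparison.

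**Figure D3:**
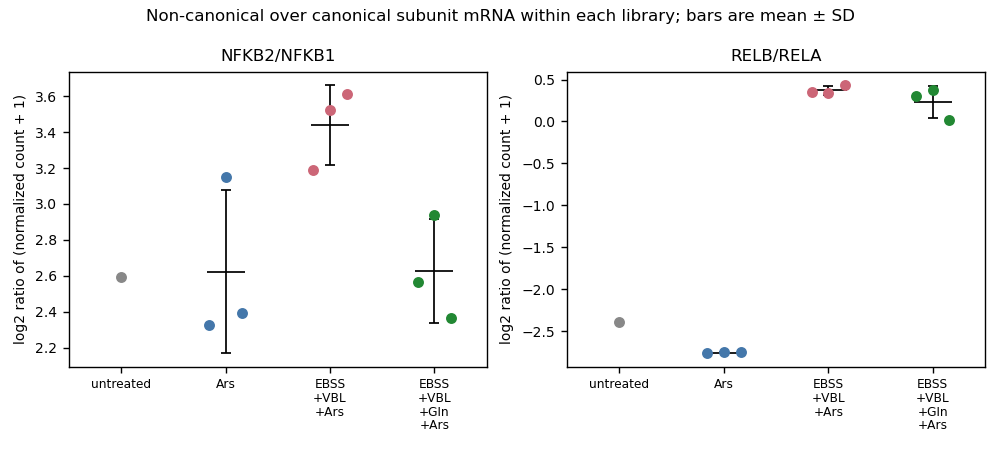
The log2 ratio of NFKB2 to NFKB1 and of RELB to RELA (normalized count + 1) within each library, 1 point per library, with the mean ± SD of 3 libraries. In the order Ars, EBSS+VBL+Ars, EBSS+VBL+Gln+Ars, RELB/RELA means are -2.76, 0.37 and 0.23, and NFKB2/NFKB1 means are 2.62, 3.44 and 2.63.

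Levels of different genes were compared per kb of annotated exons, a scale on which every value here is normalized counts per kb. In Ars, RELA was highest at 192 ± 10.8, followed by NFKB2 at 90.8 ± 10.2 (SD, n = 3). NFKBIE, NFKBIB, NFKBIA and RELB lay between 51.4 and 61.8, an order that changed when the longest transcript was used as the length. In EBSS+VBL+Ars, RELB at 760 ± 44.3 exceeded NFKB2 at 466 ± 38.2 and RELA at 322 ± 11.7, and in EBSS+VBL+Gln+Ars RELB was at 539 ± 91.7, NFKB2 at 426 ± 43.0, TRAF1 at 289 and RELA at 251. With the longest transcript as the length, RELA at 431 lay above TRAF1 at 297 in that group. NFKB1 stayed low per kb, at 5.25, 15.2 and 24.6 in the 3 groups (11.7, 33.9 and 54.7 with the longest transcript), and REL was between 0.684 and 1.22. With either length, RELA and NFKB2 were the highest pair in Ars and RELB and NFKB2 in both starved groups. In the untreated library RELA was at 298 per kb, NFKB2 at 129 and RELB at 103.

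The untreated library has no replicate, so its values are a description. It lay above all 3 Ars libraries in 8 of 10 members, against 39.0% of all genes tested, and REL and NFKBIE lay within the Ars range. It was at least 1.5-fold above the Ars mean in 4 members, against 18.7% of all genes. These were TRAF1 at 4.01 times the Ars mean, TNFAIP3 at 2.45, RELB at 2.01 and RELA at 1.56. For TRAF1 and RELB the untreated value still lay well below every starved library.

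The other genes of the pathway were counted over 7 lists of 123 genes in all, without the members, of which 88 were tested. In EBSS+VBL+Ars against Ars, 37 were called higher and 9 lower, with a median log2 fold change of 0.32, beside 21.5% of all genes tested called higher and 21.3% lower. With glutamine, 13 were called higher and 5 lower, with a median of 0.07, beside 8.45% and 8.52% of all genes. These lists were not set against the other genes by a test, and they too were chosen with earlier results of these data known. Some genes are in more than 1 list. Counts of genes that rose or fell in the lists below are counts of genes called.

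In the non-canonical arm 5 of 8 genes were called higher with starvation and none lower (0 lower), with a median of 0.96. Of all genes tested, 21.5% were called higher and 21.3% lower in that comparison. MAP3K14, the NIK kinase that starts this arm, was at 201, 246 and 206 normalized counts in Ars, 849, 1042 and 1072 in EBSS+VBL+Ars, 587, 708 and 622 in EBSS+VBL+Gln+Ars and 398 in the untreated library. It stood apart in every group, rising by a log2 fold change of 2.17 (SE 0.12, limma adjusted p = 3.45e-11) and falling with glutamine by 0.62 (SE 0.12, limma adjusted p = 0.00103). The fall was under 1.5-fold in 7 of 21 alternatives: at -0.34 to -0.40 with equal totals, quantile normalization or the GC trend removed, and at -0.58, -0.56 and -0.57 without EBSS+VBL+Ars replicate 2 or 3 or EBSS+VBL+Gln+Ars replicate 1. The other called genes counted here encode proteins that keep NIK low. TRAF2 and TRAF3, the adaptors that bring NIK to its ubiquitin ligases, rose by log2 fold changes of 1.10 and 1.07. BIRC2 and BIRC3, the ligases cIAP1 and cIAP2, rose by 0.85 and 3.08 (limma adjusted p = 0.00122 and 8.21e-09). BIRC3 was at 3.35 to 5.40 in Ars (4 to 8 reads), 36.7 to 49.4 in EBSS+VBL+Ars and 59.5 to 87.0 with glutamine. Its glutamine step of 0.82 (limma adjusted p = 0.0225) lost its call in 6 of 20 alternatives. Among them were the fits without EBSS+VBL+Ars replicate 2 or 3 and without EBSS+VBL+Gln+Ars replicate 2 or 3 (0.72 to 0.80).

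In the canonical arm 9 of 23 adaptors and kinases were called higher with starvation and none lower (0 lower), with a median of 0.26. Of all genes, 21.5% were called higher and 21.3% lower. MYD88, MAP3K7 and UBE2N were at -0.53, -0.51 and -0.44 (limma adjusted p = 0.00782, 0.0131 and 0.0120), each under 1.5-fold. SHARPIN, at 0.40 (limma adjusted p = 0.00875), was under 1.5-fold as well. RBCK1, a part of the linear ubiquitin ligase, rose by 1.27 (limma adjusted p = 2.54e-08) and IKBKB, the catalytic IKK subunit of this arm, by 1.26 (limma adjusted p = 8.17e-08). IRAK1, BCL10 and MALT1, signalling proteins of Toll-like, interleukin and antigen receptors, rose by 0.61, 0.64 and 0.60. IRAK1 fell under 1.5-fold without EBSS+VBL+Ars replicate 3 (0.56), with equal totals (0.43), after quantile normalization (0.37) and with the GC trend removed (0.50). BCL10 did so without Ars replicate 2 or EBSS+VBL+Ars replicate 1 (0.53 and 0.54) and with equal totals (0.46). MALT1 did so without EBSS+VBL+Ars replicate 1 or 3 (0.52 each), with equal totals (0.42) and at a pseudocount of 5 (0.58). With glutamine MAP3K7, the kinase TAK1 that activates IKK, rose by 0.90 (limma adjusted p = 0.000614), from 48.9 to 68.5 in EBSS+VBL+Ars to 106 to 116. IKBKG, the regulatory IKK subunit NEMO, fell by 0.76 with glutamine (limma adjusted p = 0.00351), a call lost at -0.48 with equal totals and -0.51 with the GC trend removed.

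Of 13 receptors tested, 5 rose and 2 fell with starvation, against 21.5% and 21.3% of all genes. LTBR and TNFRSF12A, receptors of the TNF family, rose by 1.28 and 1.00, and TNFRSF9, a costimulatory receptor of that family, by 1.87. TNFRSF1A, the main TNF receptor, rose by 0.71 with starvation and fell by 0.70 with glutamine (limma adjusted p = 4.59e-05 and 0.000333), and both calls were lost with equal totals, at 0.53 and -0.41, and after quantile normalization, at 0.39 and -0.40. The glutamine call was also lost with the GC trend removed, at -0.57. NGFR, the neurotrophin receptor p75, fell by 2.03 with starvation (limma adjusted p = 7.78e-06). TLR4, which senses bacterial lipopolysaccharide, rose by 0.90 with starvation (limma adjusted p = 0.00943), but not without EBSS+VBL+Ars replicate 1 (0.64). TNFRSF13C, a B cell receptor of the TNF family, was at 11.7 to 13.0 in Ars, 5.24 to 7.86 in EBSS+VBL+Ars and 10.8 to 16.4 with glutamine, and its calls in both steps were lost in 8 and 6 of 20 alternatives. The first was lost when any Ars library was left out, or without EBSS+VBL+Ars replicate 2 or 3 (-0.83 to -0.97), the second without EBSS+VBL+Ars replicate 2 or 3 or EBSS+VBL+Gln+Ars replicate 2 or 3 (0.96 to 1.01).

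Of 14 ligands, 3 were tested. IL18, an inflammatory cytokine, rose by 0.92 with starvation and by 0.68 with glutamine, the latter under 1.5-fold without EBSS+VBL+Ars replicate 3 (0.54) or EBSS+VBL+Gln+Ars replicate 1 (0.58) and with the GC trend removed (0.45). TNFSF9, the ligand of TNFRSF9, was lower by 0.66 with starvation and 0.68 with glutamine on the log2 scale, and its calls were lost without Ars replicate 2 or EBSS+VBL+Ars replicate 3 (-0.56 and -0.48), and without EBSS+VBL+Ars replicate 2 or EBSS+VBL+Gln+Ars replicate 1 or 3 (-0.45 to -0.67). The glutamine call of TNFSF9 was lost as well with equal totals (-0.40), with the GC trend removed (-0.50) and in DESeq2 (-0.70). TNF itself was at 1.35 to 5.87 in Ars (2 to 7 reads), 4.49 to 11.0 in EBSS+VBL+Ars (4 to 10 reads) and 20.6 to 27.4 with glutamine. The ranges of Ars and EBSS+VBL+Ars overlapped. The group means were 3.34, 8.67 and 23.6, so TNF reached the mean of 10 for testing only through the glutamine group. Its calls are therefore a description, although the counts over the lists include them. The calls of TNF in both steps were lost in 6 and 5 of 20 alternatives. Those included the starvation fits without Ars replicate 1 or EBSS+VBL+Ars replicate 2 or 3 (0.84 to 1.05) and the glutamine fits without EBSS+VBL+Ars replicate 1 or any EBSS+VBL+Gln+Ars library (1.06 to 1.51).

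Of 15 brakes tested besides TNFAIP3, 5 rose and 1 fell with starvation, where 21.5% of all genes rose and 21.3% fell. CYLD, a deubiquitinase, rose by 2.35, from 31.0 to 35.8 in Ars to 155 to 203 (limma adjusted p = 4.60e-10). TNIP1, a partner of A20, rose by 1.49 (limma adjusted p = 2.58e-10), and TOLLIP and TANK, adaptors that restrain interleukin and TNF signalling, by 1.07 and 0.97, whereas PDLIM2, which promotes the removal of nuclear RELA, fell by 0.87 (limma adjusted p = 0.000111). None of the 15 passed with glutamine (0 of 15), where 8.45% of all genes were called higher and 8.52% lower. Of 7 other inhibitors and nuclear IκB proteins, NFKBIZ rose by 1.91 and NKIRAS1 fell by 0.79 with starvation, the latter not without Ars replicate 1 or 3 (-0.75 and -0.71), after quantile normalization (-0.63), with no filter (-0.79) or in DESeq2 (-0.87).

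Among 26 tested target genes, 15 rose and 4 fell with starvation, with a median of 0.84, and 8 rose and 1 fell with glutamine, with a median of 0.26. The shares of all genes were 21.5% and 21.3% for starvation and 8.45% and 8.52% for glutamine. CXCL8, a neutrophil chemokine, was at 6.08, 1.86 and 5.87 normalized counts in Ars (9, 2 and 7 reads), 137, 99.5 and 129 in EBSS+VBL+Ars, and 303, 274 and 365 in EBSS+VBL+Gln+Ars. Like TRAF1 it formed 3 separate steps, of 4.55 and 1.36 on the log2 scale (limma adjusted p = 7.57e-11 and 0.00119). CCL2, a monocyte chemokine, rose by 1.11 and by 1.28. GADD45B, a stress-response gene, fell by 0.63 with glutamine (limma adjusted p = 0.00193), which was under 1.5-fold without EBSS+VBL+Ars replicate 2 or 3 (-0.54 and -0.55), after quantile normalization (-0.51) and with the GC trend removed (-0.39). With equal totals it was -0.35 (limma adjusted p = 0.0615). SDC4, a cell surface proteoglycan, rose by 1.71 with starvation, and its glutamine difference was -0.18 (limma adjusted p = 0.179).

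**Figure D4:**
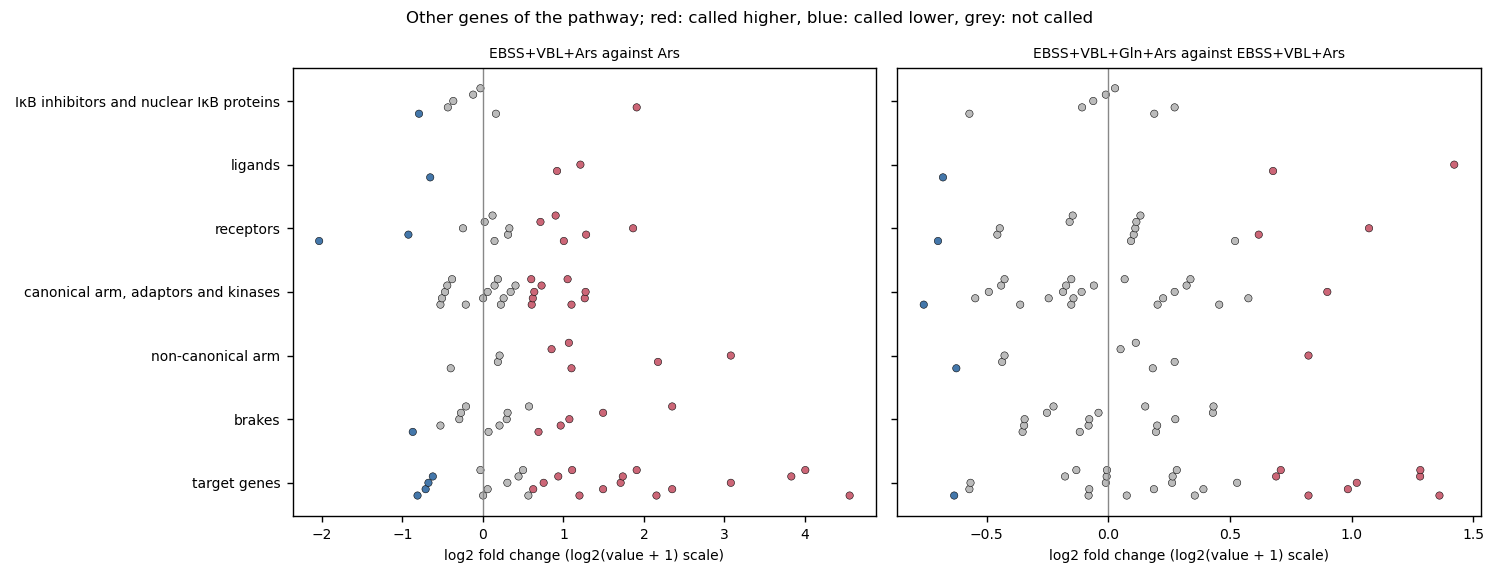
limma log2 fold changes of the tested genes of the 7 pathway lists without the 10 members, 1 point per gene and list, for EBSS+VBL+Ars against Ars and EBSS+VBL+Gln+Ars against EBSS+VBL+Ars. Red points were called higher, blue lower and grey not called; 37 of 88 different genes are red in the first and 13 in the second, and a gene in more than 1 list has a point in each.

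For 4 members the genes with the most similar profile over the 10 libraries were sought among the 6233 genes whose mean reached 100 normalized counts. Likeness was the root mean square difference of log2 profiles, each centred on its own mean. For RELB these were ROBO4 (0.32), MAFF (0.34) and SESN2 (0.36). For NFKB2 they were ETV5 (0.16), ADM2 (0.19) and ZSWIM6 (0.20), and for NFKB1 MTHFD2 (0.16), FAM107B (0.20) and SINHCAF (0.24). For TRAF1 they were the chemokines CCL4 (0.52), CXCL8 (0.80) and CCL3 (0.93), at a greater distance than for the other 3 members. The mean of CCL3 was 693 in EBSS+VBL+Ars and lower with glutamine, at 374, whereas TRAF1 rose. In Ars the means of CCL4 and CCL3 were 1.35 and 1.27 normalized counts, near the floor.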

How the data were processed

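RNA of 10 U2OS libraries was sequenced after ribosomal RNA depletion. According to the study's methods and the submitters' processing notes, reads were aligned to hg38 with STAR, counted per gene with HTSeq and normalized with DESeq2; tool versions, annotation release and strand setting: not given in the sources used here. As deposited by the authors, the signal values are normalized counts for each gene in each library, not pooled. All values (100%) were whole multiples of the library's step within 0.01 reads, which gave back the reads counted.

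The 12971 of 60671 genes whose mean over the 9 replicated libraries reached 10 normalized counts entered limma 3.58.1 in R 4.3.3 (lmFit, contrasts.fit, eBayes with trend) as log2(normalized count + 1), two-sided, group as the only term, adjusted by Benjamini-Hochberg over all genes tested. Within-library ratios were compared with exact permutation tests, and untreated values carry 95% Poisson intervals that cover counting error only. Gene IDs were matched to GENCODE 44 (60401 of 60671) for coordinates, exon lengths and GC content. Samples were grouped by their labels. Named were all members, and up to 6 called genes per list for starvation and up to 3 for glutamine by smallest p. MAP3K14, TRAF2, TRAF3, BIRC2 and BIRC3 were named whatever their p, as were the 3 most similar genes of 4 members. The members and gene lists were chosen with earlier results of these data known, so no list is independent evidence.

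Alternatives were pseudocounts of 0.5 and 5, no filter, a minimum mean of 50, equal totals, quantile normalization, edgeR 4.0.16 and DESeq2 1.42.0 on the recovered reads, the compared groups alone, a replicate block, removal of the GC trend, no minimum fold, and each library left out. Removal of the GC trend from the ratios was added after seeing the data. The fitting code was tested on simulated counts. Libraries of equal replicate number were not taken as pairs: their deviations from group means correlated at -0.063 to 0.31, over 0.1 in 4 of 9 pairs.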

Additional observations from a re-analysis of the deposited data

How the results depend on the processing

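Of 654 alternative values of the members' 30 fold changes, 632 kept direction and side of the threshold. The 9 starvation calls held in every library left out (9 members each time), as did the 8 of EBSS+VBL+Gln+Ars against Ars. Members called with glutamine were 1 with the GC trend removed (also with the replicate block), 4 with no minimum fold, and 2 to 4 with each library left out. Genes called at a minimum mean of 50, where REL and TNFAIP3 are not tested, were 3635 for starvation and 2723 for EBSS+VBL+Gln+Ars against Ars, because fewer genes were tested, and 3729 for glutamine with no minimum fold. Reversals were all of small values. In glutamine, NFKB2 went to 0.16 with equal totals, 0.16 with quantile normalization and 0.13 with the GC trend removed, with or without the block. NFKBIB went to 0.18 with equal totals, 0.14 with the GC trend removed and ranged from -0.17 to 0.0072 with each library left out, where NFKBIE ranged from -0.013 to 0.13. REL in EBSS+VBL+Gln+Ars against Ars went to -0.046 with the GC trend removed and ranged from -0.10 to 0.47 with each library left out. The NFKB2/NFKB1 difference of that comparison went to -0.0033 at a pseudocount of 0.5 and ranged from -0.16 to 0.26 with each library left out. With the GC trend removed, which was tried on the ratios after seeing the data, it was 0.33, and the NFKB2/NFKB1 difference was 0.67 for starvation and -0.34 for glutamine. Genes called with each library left out were 5220 to 5821, 1705 to 3012 and 3809 to 4229. The cause of these changes was not tested. With equal totals the median of all genes was -0.16 for starvation and 0.12 for EBSS+VBL+Gln+Ars against Ars.

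With the replicate number as a block, 5634, 2385 and 4223 genes were called against 5548, 2201 and 4124 without it, and no member's call changed. The numbers were not taken to pair the libraries, although 6 of 9 libraries correlated best with their own number. Among the members, levels were least precise for REL in every group and for TRAF1 and TNFAIP3 in Ars, which rest on 7 to 44 reads per library.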
